A study of Mus musculus with 2 samples.

Results

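The Kruppel-like factors described here are 8 mouse genes, Klf2, Klf3, Klf4, Klf6, Klf7, Klf9, Klf10 and Klf13, out of 55536 gene rows. They were identified by gene symbol, were chosen with earlier results of these data known, and were all found in every table. The 9 other Kruppel-like factor genes are described further below. RNA was measured in bone marrow-derived macrophages of C57BL/6J mice, an inbred strain, in 1 group of 2 libraries (replicates 1 and 2). The cells had received Lipid A, the lipid anchor of lipopolysaccharide and a ligand of Toll-like receptor 4, at 100 ng/ml for 12 h. It was washed away for 12 h and then given a second time at 100 ng/ml for 30 min. RNA from the nucleoplasm, the soluble part of the nucleus, was freed of ribosomal RNA and sequenced from 1 µg in replicate 1 and 500 ng in replicate 2. The labels name separate biosamples with the same donor identifier, and no source used here says whether these were taken from different mice or culture dishes. With 1 condition there is no comparison between conditions and no test. The differences below are between the 2 libraries and may be technical.

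Kruppel-like factors are transcription factors that bind GC-rich and CACCC-type DNA through zinc fingers near the end of the protein, while the front of each protein recruits activators or repressors. In macrophages, Klf2 and Klf4 are known for restraining or redirecting inflammatory gene expression, and Klf6 for supporting inflammatory targets of NF-kB. By textbook grouping, Klf2, Klf4, Klf6 and Klf7 belong to a branch that mostly activates, Klf3 is a repressor that recruits CtBP proteins, and Klf9, Klf10 and Klf13 repress through SIN3. In nuclear RNA, transcripts still being made and spliced are sampled together with finished ones. Fewer cells making a transcript and less of it per cell cannot be told apart in bulk RNA.

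The DNA-binding part is what the 8 genes share, so the coding sequence of the third zinc finger is shown for each, from the GENCODE M21 transcripts (mm10), 5′ to 3′. Capitals mark the codons of the paired cysteines and paired histidines that hold the zinc ion. 3 zinc fingers were found by pattern in every one of the 8 coding sequences, and the third spans 63 bases in each.
Klf2: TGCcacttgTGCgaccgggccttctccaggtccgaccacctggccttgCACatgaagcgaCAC
Klf4: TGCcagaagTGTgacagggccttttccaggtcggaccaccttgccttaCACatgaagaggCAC
Klf6: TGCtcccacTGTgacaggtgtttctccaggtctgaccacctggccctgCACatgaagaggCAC
Klf7: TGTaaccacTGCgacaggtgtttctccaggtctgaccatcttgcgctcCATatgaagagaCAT
Klf3: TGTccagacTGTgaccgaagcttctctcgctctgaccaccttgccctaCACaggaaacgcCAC
Klf9: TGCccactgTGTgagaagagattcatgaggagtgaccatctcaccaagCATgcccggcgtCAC
Klf10: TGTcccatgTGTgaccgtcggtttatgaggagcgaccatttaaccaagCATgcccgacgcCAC
Klf13: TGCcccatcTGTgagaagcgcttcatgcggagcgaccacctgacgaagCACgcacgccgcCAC

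Of the 63 bases, 21 were the same in all 8 genes. Identity over the 28 pairs ran from 47.6% to 82.5%, with a median of 58.7%. It was 71.4% to 82.5% among Klf2, Klf4, Klf6 and Klf7 (6 pairs) and 74.6% to 77.8% among Klf9, Klf10 and Klf13 (3 pairs). Between these branches it was 47.6% to 58.7% (12 pairs). Klf3 lay nearer to the activating branch, at 66.7% to 73.0%, than to the SIN3-binding one, at 52.4% to 55.6%. The genes also differ in what follows the finger. In Klf2, Klf4, Klf6 and Klf7 only 3 coding bases remained before the stop codon, against 9 in Klf3, 57 in Klf9, 87 in Klf10 and 117 in Klf13. Stretches of 31 bases found in another of the 8 genes numbered 4 of 11341 in Klf3, 1 of 4143 in Klf10, 5 of 7493 in Klf13 and 0 in the other 5 genes, so few reads of that length could belong to more than 1 of them.

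Replicate 1 held 23845991 gene counts and replicate 2 held 20675294 in the alignment-based table, the source of every value below where no table is named. The other table, called read-based, was made from the reads. In each library all 8 macrophage markers reached 10 TPM, and their means ran from 43.2 to 1488 TPM. TPM is a level corrected for transcript length and scaled to the same total in each library. The 4 T and NK cell markers had 0 counts in both libraries of the alignment-based table. In the read-based one none of the 4 reached 1 TPM in both, with Cd8a highest on 68.9 and 105.4 counts. No B cell (0 of 3), neutrophil (0 of 4) or fibroblast marker (0 of 3) reached 1 TPM in both. Of the erythroid markers 1 of 3 did, Alas2 at 2.47 TPM, and of the endothelial ones 1 of 4, Vwf at 13.1 TPM, while Pecam1 stood at 1.06, Cdh5 at 0.275 and Tek at 0. In the read-based table, 2 of 4 endothelial markers reached 1 TPM in both, as Pecam1 stood there at 1.81 and 6.29 TPM on 421 and 765 counts, against 89 and 86. Summed TPM was 2097 and 3526 for the macrophage list, 15.4 and 13.6 for the endothelial list and at most 3.28 for each other list. The part of other cells in the values below was not tested. Mitochondrial mRNAs took 2.81% of gene counts in replicate 1 and 6.85% in replicate 2.

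Klf6 was by far the most abundant of the 8, and the others lay in steps below it. Klf3 and Klf13 stood between 15 and 25 TPM, Klf10, Klf7 and Klf2 near 5 TPM, and Klf4 and Klf9 below 1. 3 of the 8 genes reached 10 TPM in both libraries, where 15.6% of 22028 protein-coding genes did. At 1 TPM the count was 6 of 8, where 41.9% of protein-coding genes did, and at 20 TPM it was 1 of 8, where 8.02% did. The median over the 8 genes was 5.57 TPM in replicate 1 and 5.86 in replicate 2, beside 3.08 and 3.94 for protein-coding genes listed above 0. The 9 other Kruppel-like factor genes all lay under 1 TPM in both libraries. As the 8 were chosen with earlier results known, these shares and medians describe the 8 genes and not the family.

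**Figure D1:**
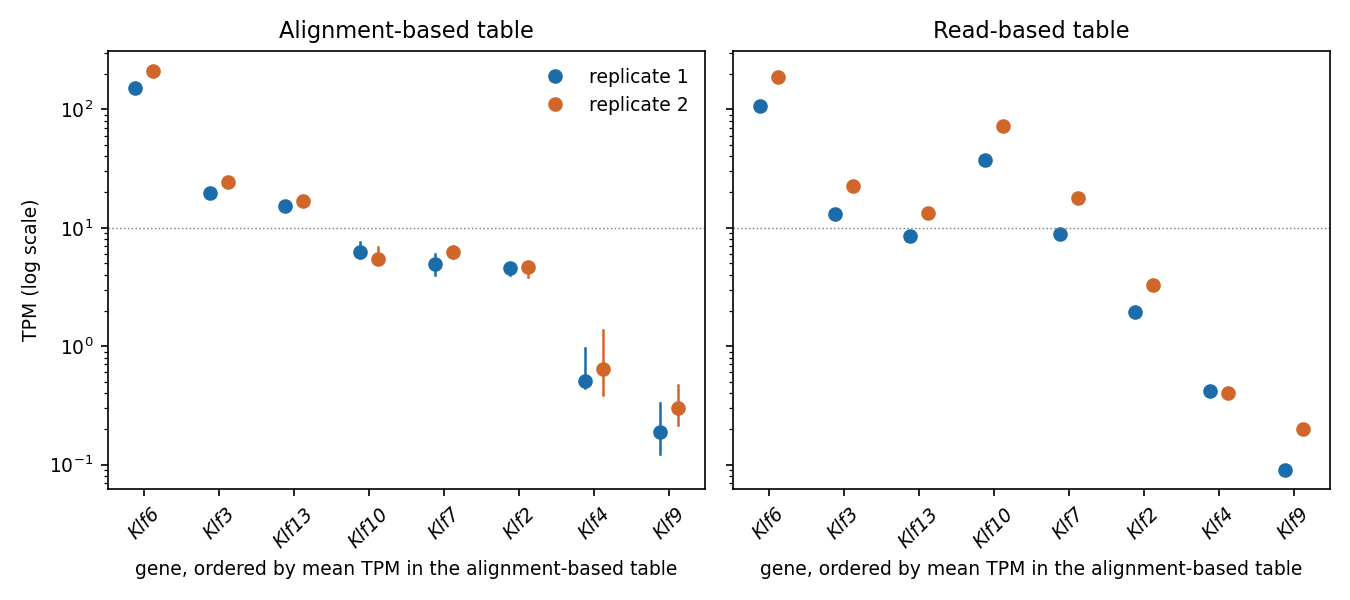
Level of each gene in TPM (log axis) in the alignment-based gene table (left) and in the read-based table (right), 1 point for each library, with bars for the deposited credibility bounds at left and a dotted line at 10 TPM. Klf6 is highest in both tables, while Klf10 lies near 6 TPM at left and at 37.5 and 72.9 TPM at right.

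In the activating branch, Klf6 (chromosome 13, 5861482 to 5870394, plus strand, mm10) is an early-response gene made in most tissues. It stood at 151 TPM in replicate 1 and 212 in replicate 2, a mean of 182 ± 43.0 (SD, n = 2), from 19974 and 22336 counts. It thus held 74.6% and 78.5% of the summed TPM of the 8 genes, which was 203 and 270.4. Among protein-coding genes above 0 it ranked 171 and 136. The mean of Klf6 was 8.28 times that of Klf3, the next gene down.

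Klf7 (chromosome 1, 64029447 to 64122282, minus strand) is best known for its part in the growth of nerve cells. It stood at 4.94 and 6.25 TPM, a mean of 5.60 ± 0.926 (SD, n = 2), from 847 and 1172 counts. Klf2 (chromosome 8, 72319033 to 72321656, plus strand), known for quiescence in endothelium, T cells and monocytes, stood at 4.60 and 4.64 TPM, a mean of 4.62 ± 0.0283 (SD, n = 2). Its counts were 289 and 210, so the libraries lay together in TPM although replicate 1 held more counts. Klf4 (chromosome 4, 55527143 to 55532466, minus strand), a factor of monocyte differentiation and of pluripotency, stood at 0.51 and 0.64 TPM, a mean of 0.575 ± 0.0919 (SD, n = 2), from 55 and 32 counts. In replicate 2, 0.26 of the 0.64 TPM lay in a short form, Klf4-202, on 2.18 counts. The main form, Klf4-201, stood at 0.51 and 0.38 TPM. Both libraries held Klf4 RNA, and the mean of Klf2 was 8.03 times that of Klf4.

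Klf3 (chromosome 5, 64803388 to 64832901, plus strand), the CtBP-recruiting repressor, was second. It stood at 19.8 and 24.2 TPM, a mean of 22.0 ± 3.10 (SD, n = 2), from 2924 and 2570 counts.

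Among the SIN3-binding genes, Klf13 (chromosome 7, 63886351 to 63938915, minus strand), known as a regulator of the chemokine gene Ccl5 in T cells, was highest. It stood at 15.2 and 16.7 TPM, a mean of 16.0 ± 1.03 (SD, n = 2), from 2480 and 2256 counts. Klf10 (chromosome 15, 38291463 to 38300706, minus strand), first described as an early gene induced by TGF-beta, stood at 6.20 and 5.46 TPM, a mean of 5.83 ± 0.523 (SD, n = 2), from 585 and 418 counts. Klf9 (chromosome 19, 23141226 to 23168134, plus strand), a gene responsive to glucocorticoid and thyroid hormone, was the lowest of the 8. It stood at 0.19 and 0.30 TPM, a mean of 0.245 ± 0.0778 (SD, n = 2), from 26 and 35 counts.

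Not every step in this order exceeded the spread. Klf6, Klf3 and Klf13 kept places 1, 2 and 3 in both libraries, and their values did not overlap. Klf10 and Klf7 swapped places 4 and 5 between the libraries. Klf2 lay below Klf7 in both, but in replicate 1 the deposited credibility bounds, which describe the estimation error within a library, overlapped (4.01 to 5.96 TPM for Klf7 and 3.97 to 5.0 for Klf2). Klf4 and Klf9 took places 7 and 8 in both. Their bounds were apart in replicate 1 and overlapped in replicate 2, at 0.385 to 1.37 TPM for Klf4 and 0.216 to 0.471 for Klf9. For Klf6 the deposited TPM lay just above its own bounds in both libraries, which were 143.7 to 150.6 and 201.2 to 208.2.

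The libraries differed little for most of the 8 genes once counts were scaled. Ratios are log2 of replicate 2 over replicate 1 with a 95% counting interval. A mean count of at least 100 was held by 6 of the 8 genes. Of these 6, 0 lay beyond 2-fold, where 3.49% of 9675 genes did, 1.67% higher in replicate 2 and 1.82% lower. 1 gene, Klf7, lay beyond 1.5-fold and was higher in replicate 2, where 16.2% of genes lay beyond it in either direction and 7.93% in that one. The median over the 6 was 0.04, beside 0.02 over all 9675. Counting intervals excluded 0 for 4 of the 6, and for 65% of all genes tested, so the share is near that of genes at large.

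Klf7 was higher in replicate 2 by 0.67 (0.54 to 0.80), and Klf6 by 0.36 (0.33 to 0.39). Klf10 was lower in replicate 2, with a ratio of -0.29 (-0.47 to -0.10), as was Klf2 at -0.26 (-0.53 to -0.00). For Klf3 the ratio was 0.01 (-0.07 to 0.09) and for Klf13 it was 0.06 (-0.02 to 0.14), so neither differed beyond counting error. At under 100 counts, Klf4 gave -0.57 (-1.26 to 0.07) and Klf9 gave 0.62 (-0.15 to 1.42), and both intervals span 0. These genes are too shallow for a 1.5-fold difference to be told from counting error.

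**Figure D2:**
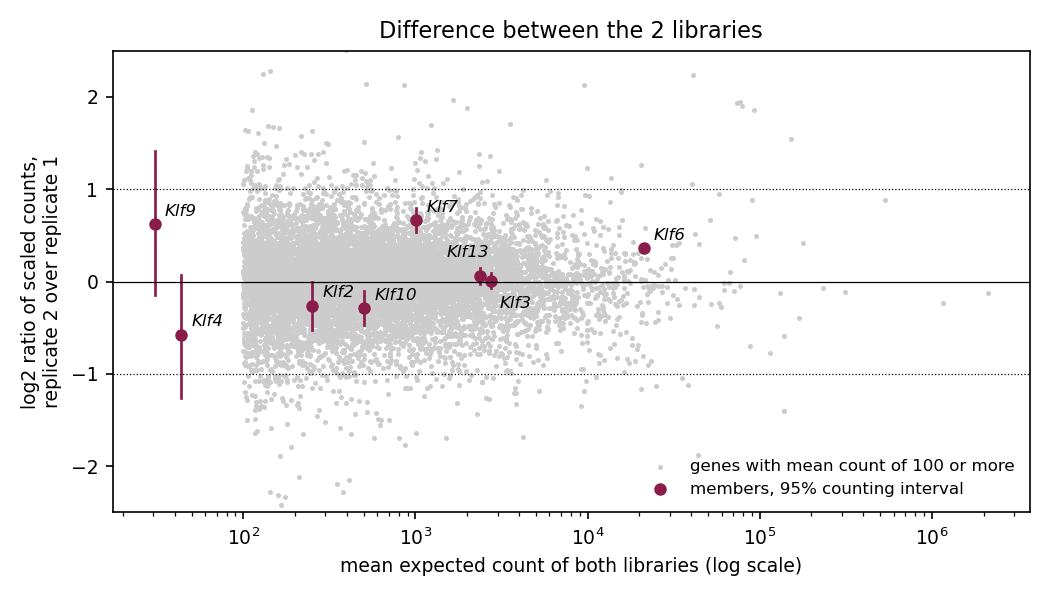
Log2 ratio of scaled counts, replicate 2 over replicate 1, against the mean expected count (log axis), with the 8 genes in dark red and their 95% counting intervals as bars, grey points for all genes at a mean count of at least 100, and dotted lines at 2-fold. The points of all 8 genes lie inside the dotted lines, the bars of Klf4 and Klf9 reach past them, and 24 of 9675 grey genes lie outside the plotted range of 2.5 on either side.

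Ratios of TPM lay higher than ratios of scaled counts for 7 of the 8 genes, Klf7 being the exception. The median log2 ratio of TPM over protein-coding genes with a mean count of at least 100 was 0.28. Klf3, with a ratio of 0.01 in scaled counts, had 0.29 in TPM, close to that median. Credibility bounds were apart between the libraries for Klf6 and Klf3, both higher in replicate 2, where 38.9% of genes tested were apart in that direction and 8.03% in the other. For Klf2 and Klf4 the sign differed, at 0.01 and 0.33 in TPM, the latter with Klf4-202 on 2.18 counts in replicate 2. Klf7 moved the other way, from 0.67 in counts to 0.34 in TPM. Its effective length, by which counts are divided, was 4414 bases in replicate 1 and 6754 in replicate 2, a ratio of 1.53. Its longest form, Klf7-202, held 55.1% of its TPM in replicate 1 and 89.9% in replicate 2. By counts, Klf7-202 held 92.6% and 99.1%. The shorter Klf7-201 had 46.5 and 6.58 counts, and Klf7-203 had 15.8 and 4.1.

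Transcript tables showed which forms of each gene were read. By alignment-based TPM, 7 of 8 genes had 1 leading transcript common to both libraries, where 82.1% of 8121 protein-coding genes with 2 or more transcripts and a mean count of at least 100 did. Klf2 has 1 annotated transcript and could not differ, and Klf4 and Klf9 are under that count. Of the other 5 genes, 4 had the same one. The exception was Klf10, with Klf10-202 leading in replicate 1 at 55.1% of its TPM and Klf10-201 in replicate 2 at 53.7%. These forms differ in their first exon, and their bounds overlapped in both libraries (1.78 to 4.06 and 1.23 to 3.36 TPM in replicate 1, 0.201 to 3.56 and 1.65 to 4.86 in replicate 2).

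**Figure D3:**
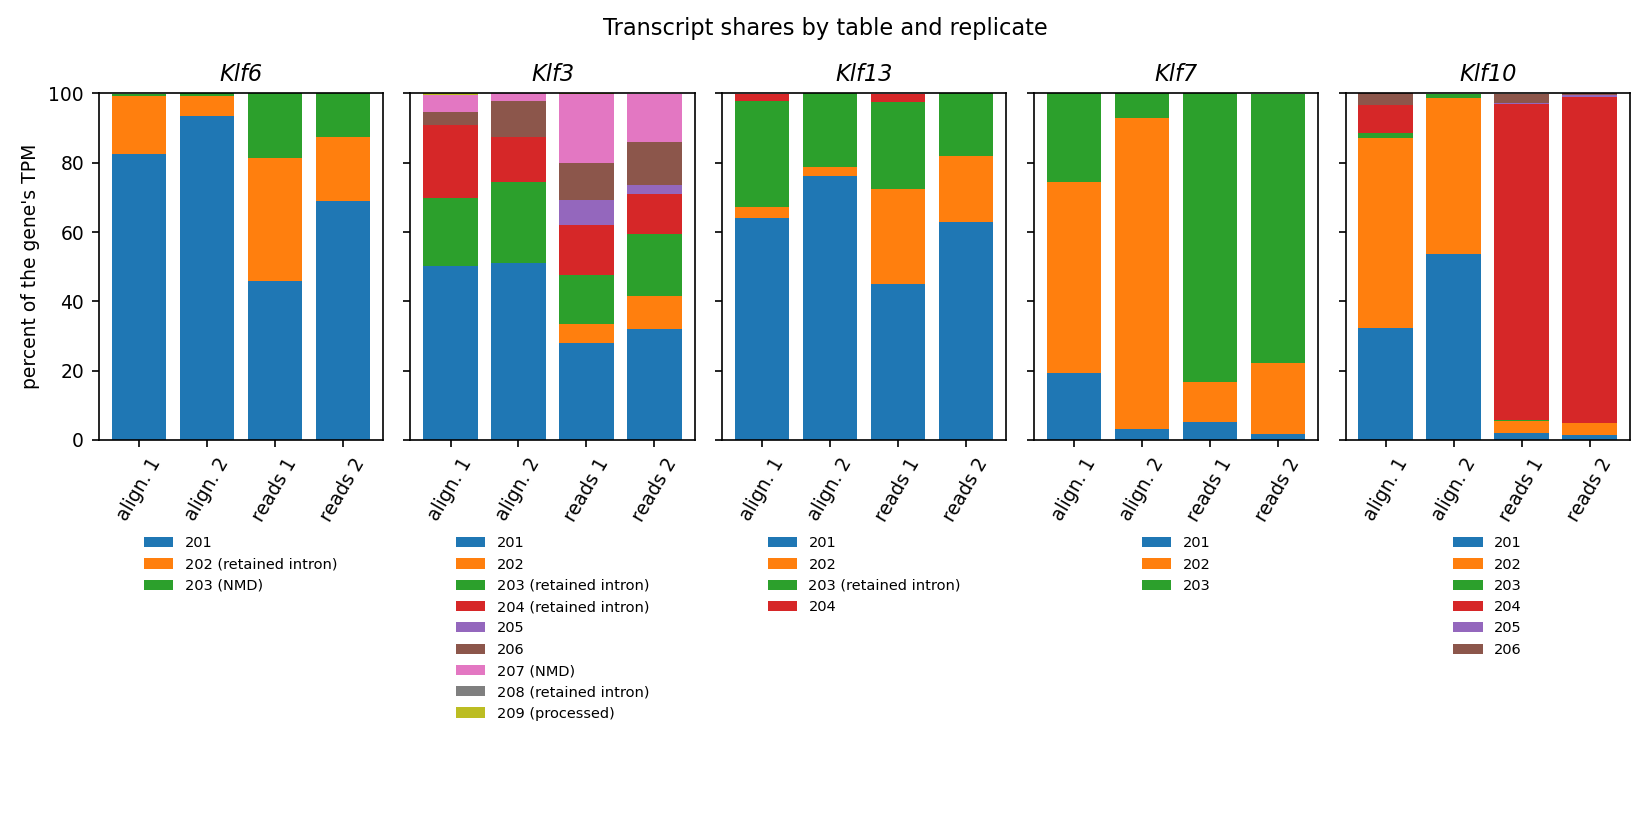
Share of each gene's TPM held by each annotated transcript (stacked bars, percent) for the 5 most abundant genes, in the alignment-based table (align. 1 and 2) and the read-based table (reads 1 and 2) of replicates 1 and 2, with NMD for transcripts annotated as targets of nonsense-mediated decay. Klf10-204 and Klf7-203 take 91.2% and 83.2% of TPM in the read-based table of replicate 1 and 8.05% and 25.5% in the alignment-based one.

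Klf6 was read mainly as its coding form. Klf6-201 held 82.5% of its TPM in replicate 1 and 93.6% in replicate 2. The remainder lay mostly in Klf6-202, annotated as a retained intron, at 16.9% and 5.59%. By counts, which are not corrected for its short length of 799 bases, Klf6-202 held 2.83% and 0.855%. Klf6-203, annotated as a target of nonsense-mediated decay, held 0.594% and 0.853% of TPM.

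Bases found in 1 form alone number 98 in Klf6-202 and 68 in Klf6-203, against 3178 in Klf6-201. Most of those in Klf6-202 and Klf6-203 are shown. Klf6-202 starts inside the first intron, and the 90 bases before the second exon (chr13:5864678-5864767, plus strand, GENCODE M21, mm10) are read through, with the intron's last AG in capitals. They hold a run of 16 T. Klf6-203 adds an exon of 68 bases within the same intron, and the 57 bases up to its stop codon, in capitals, are at chr13:5863558-5863614 on the plus strand.
Klf6-202: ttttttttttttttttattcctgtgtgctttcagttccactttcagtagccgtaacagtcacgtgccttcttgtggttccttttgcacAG
Klf6-203: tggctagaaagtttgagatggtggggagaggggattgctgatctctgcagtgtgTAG

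In the read-based table the same forms weighed more. Klf6-202 had 2379 and 1274 counts there against 565 and 191 in the alignment-based table, and Klf6-203 had 1966 and 1302 against 31 and 45. Klf6-201 then held 45.7% and 69.0% of TPM. It led in both tables and both libraries, and in both tables Klf6-202 held a smaller share in replicate 2.

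Klf3 and Klf13 also have retained-intron transcripts. In Klf3 the 3 such transcripts of its 9 held 40.7% and 36.2% of TPM, and 33.4% and 31.5% of counts. In Klf13 the only one, Klf13-203, held 30.8% and 21.1% of TPM but 5.16% and 3.10% of counts, being 934 bases long where Klf13-201 has 6396. As annotated, Klf13-203 is a single exon inside the first intron of Klf13-201 and shares no bases with that form. Among 5619 protein-coding genes with a retained-intron transcript and a mean count of at least 100, the median share of TPM was 25.7% in replicate 1 and 20.7% in replicate 2. The quartiles were 13.3% and 40.7%, then 9.03% and 36.6%. Klf13 and Klf3 lay within them in both libraries, Klf3 just under the upper one, and Klf6 was inside them in replicate 1 and below in replicate 2. The share was lower in replicate 2 for all 3 genes, and for 69.5% of the 5619. In the read-based table it was 28.6% and 29.3% of TPM for Klf3, so the direction for that gene depends on which table is used.

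Klf10 was the gene whose level depended most on the table. In the read-based table it stood at 37.5 and 72.9 TPM, second only to Klf6, against 6.20 and 5.46 in the alignment-based one. Its counts were 1.94 and 2.90 times the alignment-based ones, beside medians of 1.32 and 1.53 over protein-coding genes and 90th percentiles of 1.73 and 2.02. Klf4, below the mean count of 100 that those protein-coding genes met, also lay above both percentiles, at 1.97 and 2.12. The excess of Klf10 lay in Klf10-204, a form of 326 bases in 3 exons with 178 bases of its own. It had 444 and 618 counts in the read-based table, and 2 and 0 in the alignment-based one. That was 39.1% and 51.0% of the gene's counts, and 91.2% and 94.3% of its TPM because the form is short. Without Klf10-204, the read-based level of Klf10 was 3.32 and 4.15 TPM.

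Klf10-204 shares its first exon with Klf10-201, and its other exons lie inside the first intron of that form. The second of its exons, 151 bases at chr15:38300267-38300417 on the minus strand (GENCODE M21, mm10), is shown since most of the bases found in this form alone are here. Capitals mark an unbroken run of 33 A.
Klf10-204: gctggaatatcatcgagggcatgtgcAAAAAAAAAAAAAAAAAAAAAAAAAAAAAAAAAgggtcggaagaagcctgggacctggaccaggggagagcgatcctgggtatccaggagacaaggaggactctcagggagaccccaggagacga

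Of 210 annotated transcripts with a run of 31 or more A or T, 179 had 10 or more read-based counts in replicate 1, and in 49.7% of these the read-based count was over 10 times the alignment-based count plus 1. In replicate 2 it was 53.6% of 181. Over all other transcripts the shares were 25% of 58504 and 27.4% of 55281. These sets were not matched for transcript length or type. Klf10-204 is among the 210 and was the only transcript of the 8 genes with such a run. Forms of the 8 genes without such a run also met this 10-fold rule in both libraries. Klf6-203 had 1966 and 1302 read-based counts against 31 and 45, and Klf7-203 had 264 and 304 against 15.8 and 4.1. Klf3-202 had 107 and 177 against 0 in both. The part of the run in the count of Klf10-204 was not tested.

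**Figure D4:**
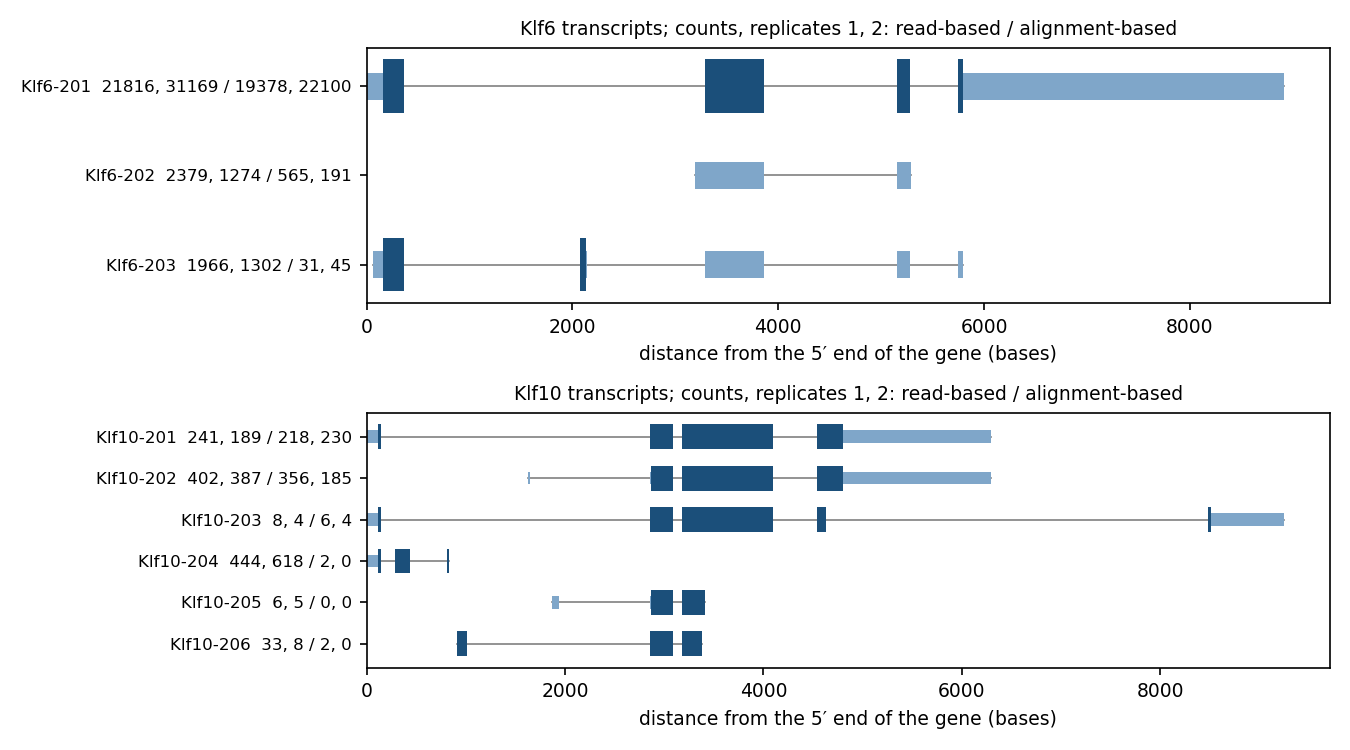
Annotated transcripts of Klf6 (top) and Klf10 (bottom) by distance from the 5′ end of the gene in bases, with exons as boxes, coding parts dark and tall, introns as lines, and counts in replicates 1 and 2 beside each name, read-based before alignment-based. Klf10-204 ends within the first intron of Klf10-201 and has 444 and 618 read-based counts against 2 and 0.

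Klf7 showed a like split. Klf7-202, of 7662 bases, led the alignment-based table with 55.1% and 89.9% of TPM on 784 and 1161 counts. Klf7-203, of 553 bases with 81 of its own at the 5′ end, led the read-based table with 83.2% and 77.9% of TPM on 264 and 304 counts. In the alignment-based table Klf7-203 had 15.8 and 4.1 counts. Without it, the read-based level of Klf7 was 1.49 and 3.91 TPM, against 8.89 and 17.7 with it.

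The other 6 genes had the same leading transcript in both tables in each library, that is 6 of 8, where 68.6% of the 8121 genes did in replicate 1 and 75.9% in replicate 2. Among the 5 genes that meet the same limits it was 3 in each library. Within the read-based table all 8, and all 5 of these, had the same leading transcript in both libraries, where 75.3% did. In the order of read-based levels, Klf10, Klf3, Klf7 and Klf13 took places 2, 3, 4 and 5 in both libraries. Klf6 stayed first at 105.8 and 187.5 TPM. Klf2 at 1.96 and 3.29, Klf4 at 0.420 and 0.400 and Klf9 at 0.0908 and 0.199 kept places 6, 7 and 8. There, 3 genes also reached 10 TPM in both libraries, but they were Klf6, Klf10 and Klf3.

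Genes annotated over the same stretches could share reads, as no source used here states whether the counting used strand. Over Klf3 lie Gm20033, on the other strand with 404 shared exon bases and 35 and 7 counts, and C230096K16Rik, on the same strand with 0 shared exon bases and 399 and 213 counts. Gm26649 lies on the other strand of Klf7 with all of its 3196 exon bases inside Klf7 exons, and had 9 and 0 counts beside the 847 and 1172 of Klf7. Gm13748, also over Klf7 with 4 shared exon bases, had 2 and 1. Over Klf13 lie E030018B13Rik with 63 and 42 counts and Gm27252 with 17 and 10, neither sharing exon bases. Read-based counts were higher, at 65 and 55 for Gm13748, 206 and 121 for E030018B13Rik and 102 and 71 for Gm27252. They were 50.8 and 38.8 for Gm20033, 501 and 331 for C230096K16Rik and 0 in both for Gm26649. The microRNA genes Mir6899 in Klf7 and Mir1192 in Klf9 had 0 counts in both libraries of the alignment-based table, and Mir1192 had 1 and 5 in the read-based one. No gene is annotated over Klf2, Klf4, Klf6 or Klf10.

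Of the 9 other Kruppel-like factor genes, 0 reached 1 TPM in both libraries of the alignment-based table. In the read-based table, 1 did, Klf12 at 1.43 and 3.85 TPM. By the posterior mean TPM of the gene table, 2 did, Klf12 at 1.21 and 1.58 and Klf8 at 1.01 and 1.26. The bounds were wide, at 0.0436 to 3.36 and 0.0578 to 4.36 for Klf12, which had 0 alignment-based counts. For Klf8 they were 0.348 to 2.22 and 0.398 to 2.76. By alignment-based TPM, Klf16 was highest at 0.76 ± 0.0283 (SD, n = 2), then Klf8 at 0.460 ± 0.0566 and Klf11 at 0.285 ± 0.120. Klf15 at 0.015 and Klf1 at 0.01 rested on 2 and 1 counts in replicate 1 and 0 in replicate 2. Klf5, Klf12, Klf14 and Klf17 had 0 alignment-based counts in both, which by counting error alone allows up to 3 counts, or 0.126 and 0.145 CPM (counts scaled to library size). Among these 4, only Klf14 was also at 0 in both libraries of the read-based table. Klf12 had 96.1 and 148.9 counts there, Klf5 had 7.01 and 5.0, and Klf17 had 2.06 and 1. Klf11 had 213 and 307 there against 30 and 40. By alignment-based TPM, Klf4 and Klf9 lay in the range of these genes and the other 6 above it. In the read-based table Klf2, at 1.96 and 3.29 TPM, was not set apart from Klf12.

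Of the 9 SP genes, the close relatives that bind similar GC-rich sites, 4 reached 1 TPM in both libraries, and 2 did in the read-based table. Sp3 stood at 23.7 ± 3.51 TPM (SD, n = 2), near Klf3, and Sp1 at 11.0 ± 4.09, between Klf13 and Klf10. Sp5, Sp6, Sp7 and Sp9 had 0 alignment-based counts, while Sp9 had 15.3 and 43.5 in the read-based table and Sp7 had 0 and 1.01. All 5 genes of the ERK5 and MEF2 route, which drives Klf2 and Klf4 in other cells, stood above both of those genes. Mef2a was at 35.0 ± 10.2, Mef2d at 19.0 ± 5.54 and Mapk7, the gene for ERK5, lowest at 9.23 ± 0.438.

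The genes of known partner proteins all had counts, and each value here is a mean ± SD over both libraries. Of 8 corepressor genes 8 reached 1 TPM in both libraries, led by Ncor1 at 73.5 ± 26.3 and Hdac1, a histone deacetylase, at 51.2 ± 17.8, with Hdac2 lowest at 4.42 ± 1.92. The coactivators, which are histone acetyltransferases, were read in 3 of 3, with Ep300 at 36.2 ± 2.67, Crebbp at 13.6 ± 1.11 and Kat2b at 8.38 ± 0.226. The ubiquitin ligases Wwp1 and Fbxw7, known to act on KLF2 protein, stood at 37.3 ± 10.5 and 8.99 ± 0.905. Of the genes in these 5 lists whose mean count was at least 100, 0 lay beyond 2-fold between the libraries, where 3.49% of all genes tested did.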

How the data were processed

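Nucleoplasmic RNA of 2 libraries of 1 group was analysed from tables on mm10 with GENCODE M21, per the file headers. The authors' gene tables hold expected counts (estimated counts that need not be whole), which were rounded to whole numbers here. The deposited TPM and FPKM values are corrected for effective length, and their credibility bounds cover estimation error within a library. A deposited percent, the share of its gene's TPM that a transcript holds, was recomputed here. Per the file headers, 1 transcript table came from alignments (alignment-based) and the other, with estimated counts and TPM, from reads (read-based). No source used here gives tool names, versions, the strand setting or trimming.

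Gene counts (23845991 and 20675294; read-based 33095133 and 33056084) exclude tRNA, spike-in and phage rows. Scaling used the TMM method of edgeR 4.0.16, with factors of 0.997 and 1.00. Ratios between libraries used a prior count of 0.5 and exact Clopper-Pearson intervals at 95%, and shares of genes beyond a fold used genes whose mean count was at least 100. A count of 0 allows up to 3 counts. These intervals and limits describe counting error alone, as the reads carry no molecular identifiers and can repeat a molecule. DESeq2 1.42.0 size factors were an alternative. The ratio calculation was tested on simulated data. Sequences were cut from GENCODE M21 transcripts.

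The genes and lists were chosen with earlier results of these data known. Named were all 8 genes, the other Kruppel-like factor genes, the 2 highest and the lowest of each related list by mean TPM, genes overlapping the 8, and leading transcripts. Klf6-202, Klf6-203, Klf13-203, Crebbp and the comparison of transcripts with A or T runs were chosen after values were seen. Protein sequences were not used here.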

Additional observations from a re-analysis of the deposited data

How the results depend on the processing

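The count of genes at 10 TPM or more in both libraries was 3, and it was 6 at a threshold of 1 TPM and 1 at 20 TPM (8.02% of protein-coding genes). It stayed 3 without replicate 1, without replicate 2, with FPKM, with posterior mean TPM and in the read-based table, where Klf10 replaced Klf13. The count beyond 2-fold was 0 under DESeq2 size factors, library size alone, a prior count of 5, read-based counts and the ratio of TPM, and 1 at 1.5-fold. The share of all genes beyond 2-fold rose from 3.49% to 8.74% at a mean count of 10 or more and to 27.9% with no filter. Both libraries had the same leading transcript for 8 genes in the read-based table and for 7 by counts. Levels moved by more than their SD for 7 of 8 genes in the read-based table. By posterior mean TPM they did so for Klf2, to 4.49, and Klf4, to 0.755. The share of the leading transcript moved by more than its SD for 5 genes in the read-based table and for 3 by counts. The ratio changed sign for Klf2 and Klf4 in TPM (0.01 and 0.33) and for Klf10 in read-based counts (0.06). For the related and marker lists, the counts at 1 TPM in the read-based table and by posterior mean, and the counts of leading transcripts over 5 genes, were chosen after seeing the data. The cause was not tested. No paired analysis was possible because the libraries form 1 group. For Klf4 and Klf9, counts of 26 to 55 limit every ratio and transcript share.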
